A study of Mus musculus with 63 samples.

Results

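The genes described here are the small nucleolar RNAs (snoRNAs) and other small RNAs measured in lymphomas of Eµ-myc mice. They are all genes whose only symbol in the platform annotation begins with Snora, Snord, Scarna, Rnu or Vaultrc, and 60 of 19938 genes met that rule. Each gene was read from its probe set with the highest mean, and no gene was removed for low values. The 60 comprise 20 H/ACA snoRNA genes (Snora), 31 C/D snoRNA genes (Snord) and 9 others, namely 3 Cajal body RNAs (Scarna), 5 genes with an Rnu symbol and the vault RNA gene Vaultrc5. In the RefSeq table of assembly GRCm38.p6 the RNAs are 45 to 345 nt long, with a median of 125 nt for H/ACA and 68 nt for C/D genes.

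SnoRNAs guide the chemical modification of other RNAs inside small ribonucleoprotein particles. H/ACA RNAs direct the conversion of uridine to pseudouridine and C/D RNAs direct methylation of the ribose, mostly in ribosomal RNA. Cajal body RNAs guide the same reactions in spliceosomal RNAs, and some snoRNAs instead act in cutting the ribosomal RNA precursor. In mammals most snoRNAs are encoded in introns of other genes and are released when the host transcript is spliced. MYC, the oncoprotein that drives these lymphomas, is known as an activator of ribosome production.

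RNA from lymph node lymphoma cells of C57BL/6 mice carrying Eµ-myc, a Myc transgene under an immunoglobulin heavy-chain enhancer active in B cells, was hybridised to 63 arrays. Of these, 31 came from lymphomas collected 4 h after a dose of CTX (cyclophosphamide, which alkylates DNA; 300 mg/kg for the 29 arrays whose labels give a dose) and 32 from native, that is untreated, lymphomas. Labelling started from 300 ng RNA for 2 CTX 4h and 17 native arrays and from 100 ng for the remaining 29 treated and 15 native ones. The 300 ng arrays were also described in a protocol text of their own, so RNA input and submission cannot be told apart. The series' design text speaks of therapy-naive samples only, so the treatment groups rest on the array labels, which leave unsaid whether the native tumours grew in the transgenic animals themselves or in recipients, and whether each array is a separate mouse. P-values therefore measure the spread between these samples.

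The 100 ng arrays were further parted by the first digit of the lymphoma number, which the labels do not explain and which is called the number series here: 12 arrays of series 8, 19 of series 9 and 13 of series 1. Together with the 300 ng arrays these make up the 4 batches used below, holding 9 CTX 4h and 3 native arrays (series 8), 14 and 5 (series 9), 6 and 7 (series 1), and 2 and 17 (300 ng). The 13 arrays of series 1 stood apart from series 8 and 9 in the small RNA genes, and results are given with and without them. Array medians lay between 6.53 and 7.11, the B cell markers averaged 9.57 to 11.83 per array in CTX 4h and 9.56 to 11.93 in native lymphomas, and 2 native arrays (replicates 19 and 8) had low Myc values of 10.64 and 11.39 against 12.36 or more elsewhere. All values are log2 expression values as deposited. A level belongs to its own probe set. Ranks and quartiles of levels across genes therefore describe probe sets, not amounts of RNA. The arrays also cannot tell a mature small RNA from the intron or precursor that contains it, nor fewer cells of a type from less RNA per cell.

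**Figure D1:**
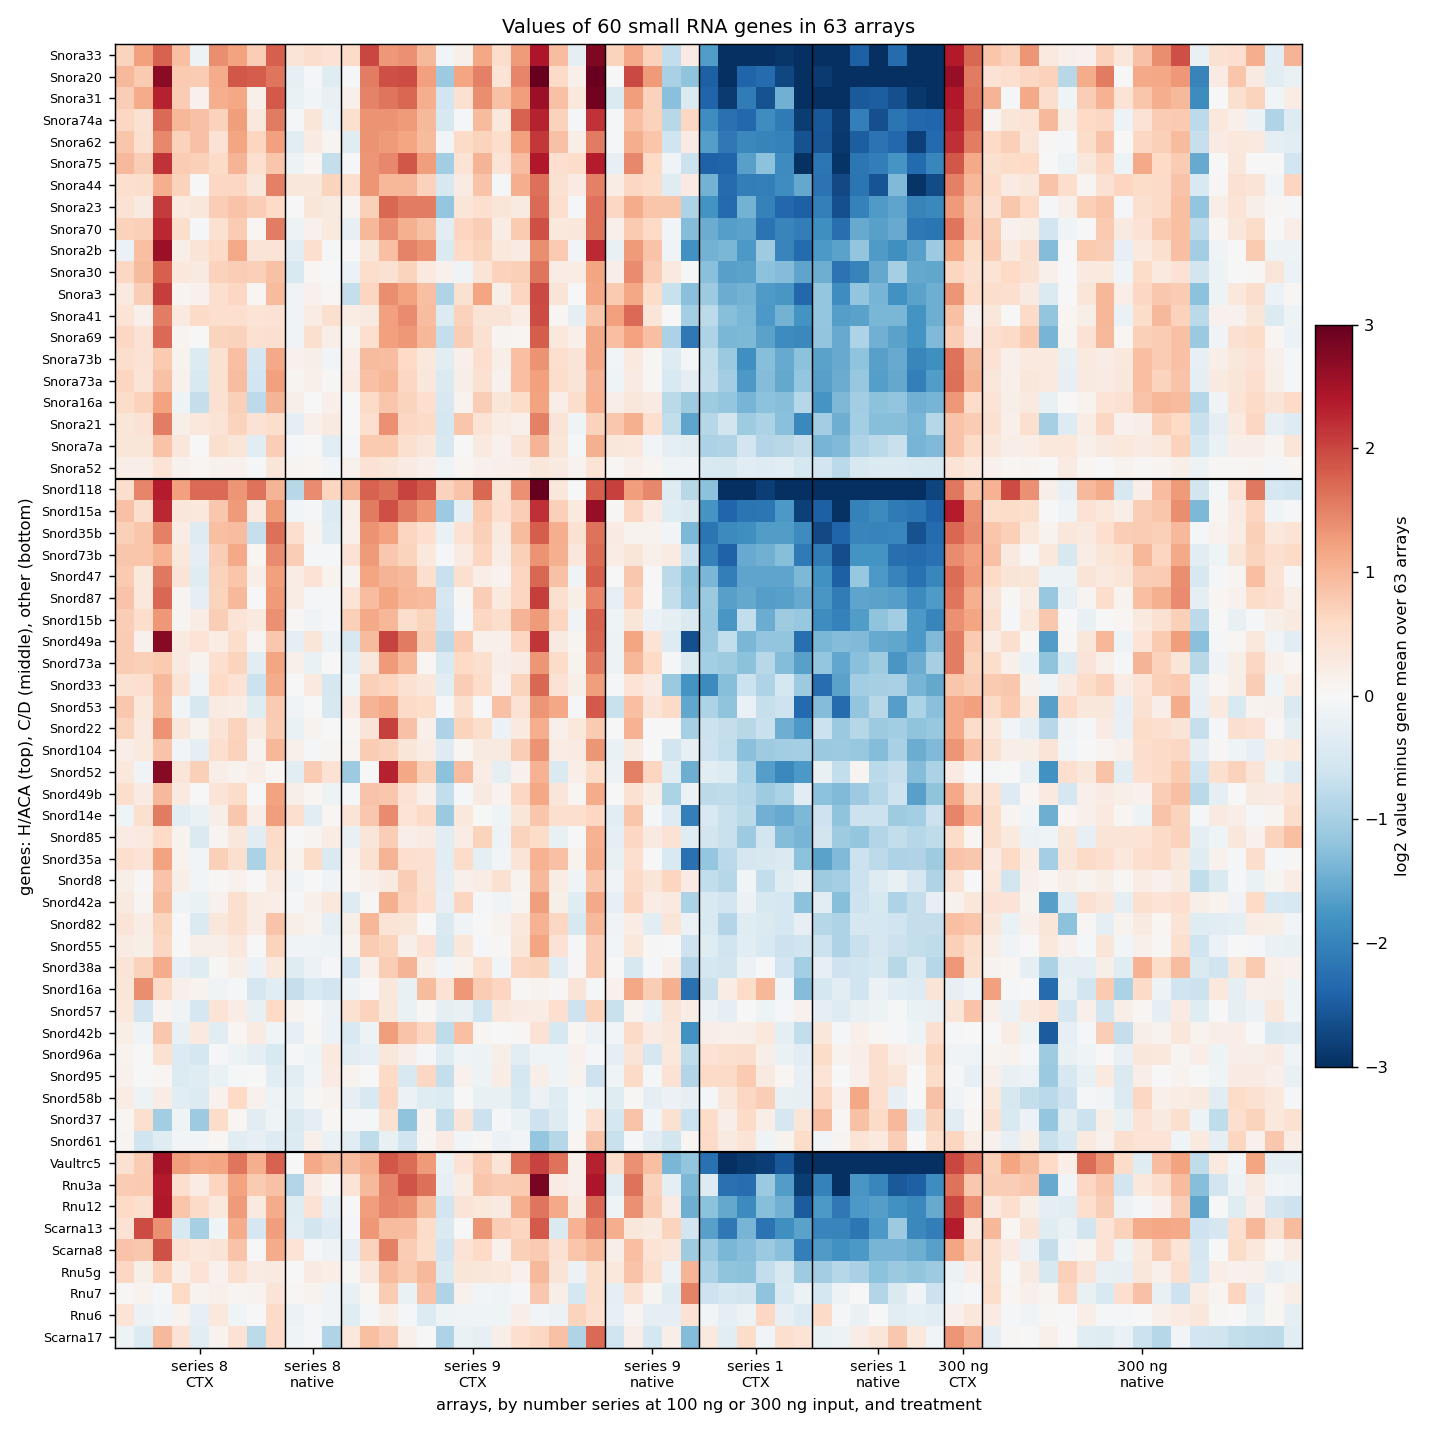
Values of the 60 genes (rows, by class) in the 63 arrays (columns, by batch and treatment), as log2 value minus the gene's mean over all arrays, with the colour scale ending at 3 in each direction. The 13 series 1 arrays are low in nearly all H/ACA genes and in many C/D genes, and the 2 CTX 4h arrays at 300 ng are high in many.

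The small RNA genes differed more between number series than between treatments. Within the 100 ng arrays, 50 of the 60 genes were higher in series 8 than in series 1 and 4 were lower (limma with treatment as a term, Benjamini-Hochberg adjusted p under 0.05 over 19938 genes). In series 9 against series 1, 50 were higher and 5 lower. The background was high, since 20.8% of all genes were higher and 24.5% lower in series 8, and 28.9% higher and 29.5% lower in series 9. The F test over the 3 series called 55 members, against 52.3% of all genes, and these were 20 of 20 H/ACA, 28 of 31 C/D and 7 of 9 other genes. The median log2 difference of series 8 and 9 over series 1 was 1.5 for the members, 1.99 for H/ACA, 1.10 for C/D and 1.88 for other genes, against 0.02 for all genes. In 42 of the 60 members it exceeded a 2-fold increase, against 0.737% of all genes, and 25 of the 50 largest such differences on the array were members.

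Snord118 encodes U8, a C/D RNA that acts in processing of the large ribosomal subunit RNAs rather than in their modification. Its values were 9.59, 11.78 and 12.76 (lowest, median and highest) in series 8, 9.57, 11.78 and 13.93 in series 9, and 4.92, 6.72 and 9.18 in series 1. All 31 arrays of series 8 and 9 thus lay above all 13 of series 1. The log2 differences from series 1 were 4.64 ± 0.37 and 4.66 ± 0.33 (SE, limma adjusted p = 9.71e-13 and 2.02e-14), the largest among the members and a 25.1-fold difference on average.

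Vaultrc5 encodes a vault RNA, a short RNA polymerase III transcript found in the vault particle. It lay at 9.35, 10.48 and 11.85 (lowest, median, highest) in series 8, at 7.97, 10.27 and 11.66 in series 9, and at 4.89, 6.05 and 7.10 in series 1. The groups again did not overlap, with differences from series 1 of 4.21 ± 0.29 and 3.92 ± 0.26 (SE, limma adjusted p = 2.43e-14 and 1.75e-15). Among H/ACA genes Snora33 differed most, by 4.10 ± 0.31 in series 8 and 4.10 ± 0.28 in series 9 (SE), followed by Snora20 (3.81 and 3.78), Snora31 (3.20 and 3.33) and Snora74a (2.89 and 2.94). The smallest F test p-values belonged to Snora62 (adjusted p = 3.02e-16 by limma), Vaultrc5 (3.27e-16) and Snora44 (8.98e-16).

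In 26 members every array of series 8 and 9 lay above every array of series 1, against 0.597% of all genes. These were 14 H/ACA, 8 C/D and 4 other genes. No member lay wholly below, against 0.813% of all genes. The H/ACA class was uniform in direction: its smallest difference was that of Snora52, at 0.57 and 0.59 (limma adjusted p = 1.04e-09 and 1.47e-11), and 19 of the 20 genes exceeded 2-fold. Snora52 also had the highest mean of all members over the arrays (13.53). The C/D class was not uniform in direction. Snord37 was lower in series 8 and 9, at 5.07, 6.04 and 6.71 and at 4.95, 6.12 and 7.02, against 5.67, 6.71 and 7.15 in series 1 (lowest, median, highest), with overlapping ranges. Its differences were -0.54 ± 0.20 and -0.48 ± 0.18 (SE, limma adjusted p = 0.0255 and 0.0207). Snord61, Snord95 and Snord96a were lower in both series as well, by -0.34 to -0.53, and Snord58b in series 9 alone passed (-0.50, adjusted p = 6e-04 by limma; -0.29 in series 8, adjusted p = 0.0786). Snord61 and Snord58b had low means over all arrays (4.99 and 4.17), below the first quartile of all genes (5.83).

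The F test did not call Rnu6 (U6, a core RNA of the spliceosome), Scarna17, Snord16a, Snord42b or Snord57 (limma adjusted p = 0.338 to 0.967). Rnu7, which encodes the U7 RNA of histone mRNA 3' end cutting, differed by 0.64 and 0.65, and Rnu5g (U5 spliceosomal RNA) by 1.36 on average. Rnu6, Rnu7 and Rnu5g had low means over all arrays (3.27, 4.80 and 4.53), below the first quartile of all genes (5.83). Rnu12, the U12 RNA of the minor spliceosome, differed by 2.21 and 2.21. Rnu3a encodes U3, itself a C/D-type RNA needed for the early cuts of the ribosomal RNA precursor, and differed by 2.41 and 2.57.

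No difference between series 9 and series 8 was called in these genes. With limma, 0 members were called (0.0% of all genes) and 0 had an unadjusted p under 0.05. Differences of series 9 over series 8 ran from -0.29 (Vaultrc5) to 0.39 (Scarna13), and the 95% confidence intervals of all 60 lay between -0.82 and 0.87. The interval of Snora52 ran from -0.09 to 0.13 and that of Snord118 from -0.65 to 0.69. Other groups of genes moved with the series too, and their part in the small RNA result was not tested. Over all genes 20.8% were higher and 24.5% lower in series 8, and 28.9% higher and 29.5% lower in series 9. Of 8 listed B cell markers (7 measured), 4 were lower in series 8 and 4 in series 9 than in series 1. Of 5 salivary gland markers 4 and 5 were higher, with array means of 6.41 to 11.13 in series 8, 4.96 to 12.78 in series 9 and 4.69 to 6.12 in series 1. Of 4 measured adipocyte markers 2 were higher in either series, while of 8 macrophage markers 1 was higher in either and 2 were lower in series 9. Of 8 T and NK cell markers 0 were higher, and 3 were lower in series 9 (limma). Array medians ran from 6.73 to 6.84 in series 8, from 6.59 to 7.11 in series 9 and from 6.53 to 6.73 in series 1.

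**Figure D2:**
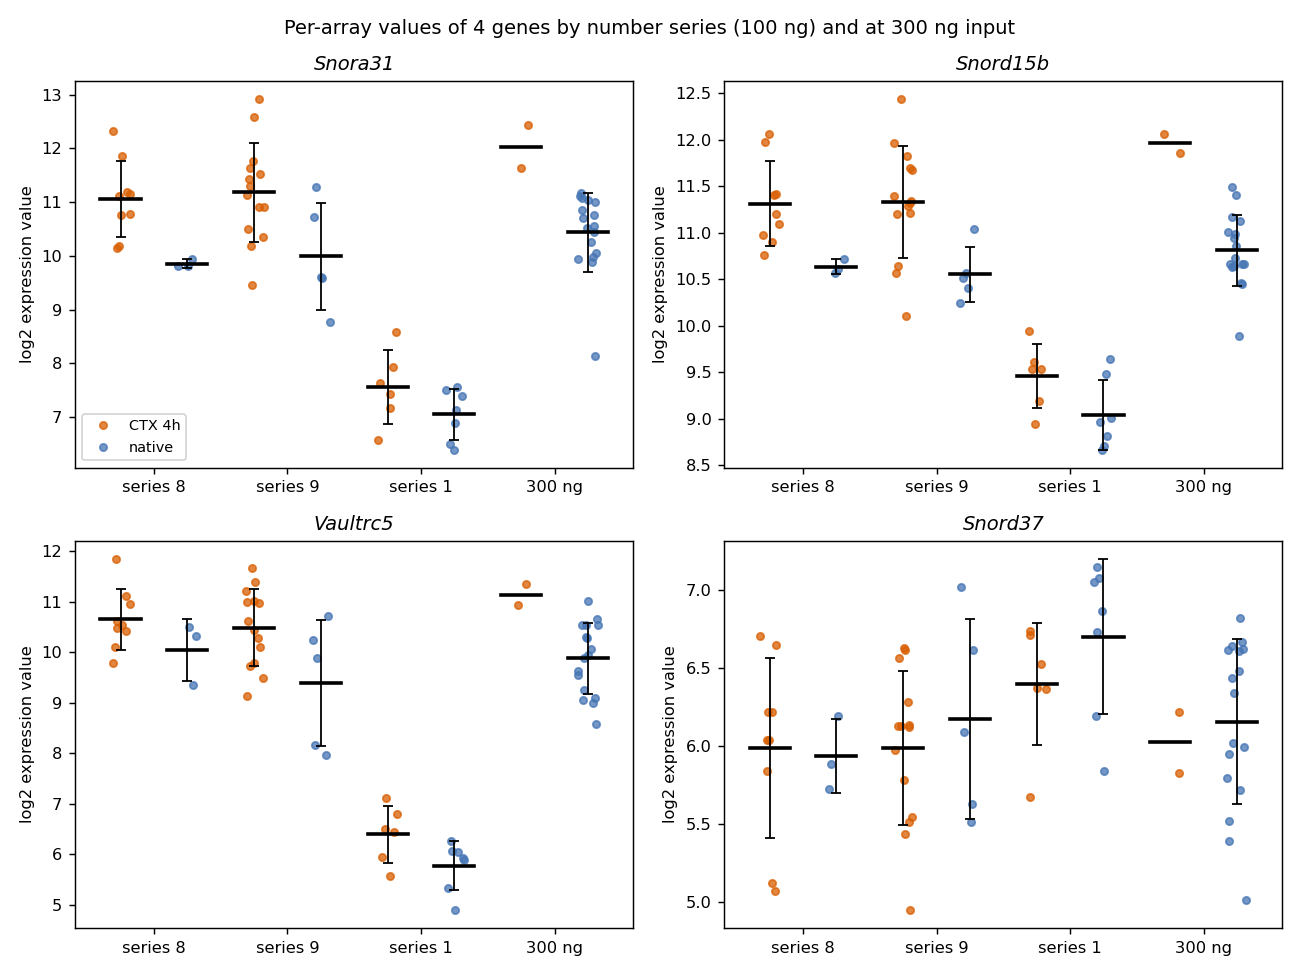
Log2 expression values of Snora31, Snord15b, Vaultrc5 and Snord37 in each array (points), by number series at 100 ng and for the 300 ng arrays, CTX 4h left of native in each. Lines are means and error bars SD (none with 2 arrays); series 1 lies below series 8 and 9 in all but Snord37.

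Other short RNA genes are given for comparison. Of 300 miRNA genes on the array, 10 exceeded a 2-fold increase in series 8 and 9 over series 1 (3.33%, against 0.737% of all genes). The median difference of the 300 was 0.24, against 1.5 for the members. Differences were positive in 88.3% of the 300 in series 8 and 92.3% in series 9, against 52.0% and 51.4% of all genes. The F test called 164, against 52.3% of all genes. Their median level was 5.23, below the first quartile of all genes (5.83), and what low levels do to the difference was not tested. The Y RNA gene Rny1, whose product binds the Ro protein, lay at 6.94 to 8.40 in series 8, 5.91 to 9.60 in series 9 and 3.56 to 5.11 in series 1, and differed by 3.48 ± 0.31 and 3.38 ± 0.28 (SE). Rmrp (the RNA of RNase MRP) differed by 0.54 and 0.59, Rpph1 (the RNA of RNase P) by 0.50 and 0.57 and Rn7sk (a regulator of transcription elongation) by 0.21 and 0.20, all past the limma threshold. Terc, the telomerase RNA, did not pass (0.16 and 0.20, adjusted p = 0.395 and 0.194).

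The difference between series went with RNA length over all members, with opposite signs in the C/D and H/ACA classes. The 19 genes under 70 nt had a median difference of 0.74, the 11 of 70 to 99 nt 1.10, the 22 of 100 nt to under 150 nt 1.92 and the 8 of 150 nt or more 2.35. Spearman's rho between length and difference was 0.58 over 60 genes, 0.48 over 31 C/D genes and -0.48 over 20 H/ACA genes. These are descriptions across genes that share the same arrays. Snora20, listed at 61 nt, had the highest difference of the shortest group (3.79), and Snord118, at 137 nt, that of the genes from 100 nt to under 150 nt (4.65).

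**Figure D3:**
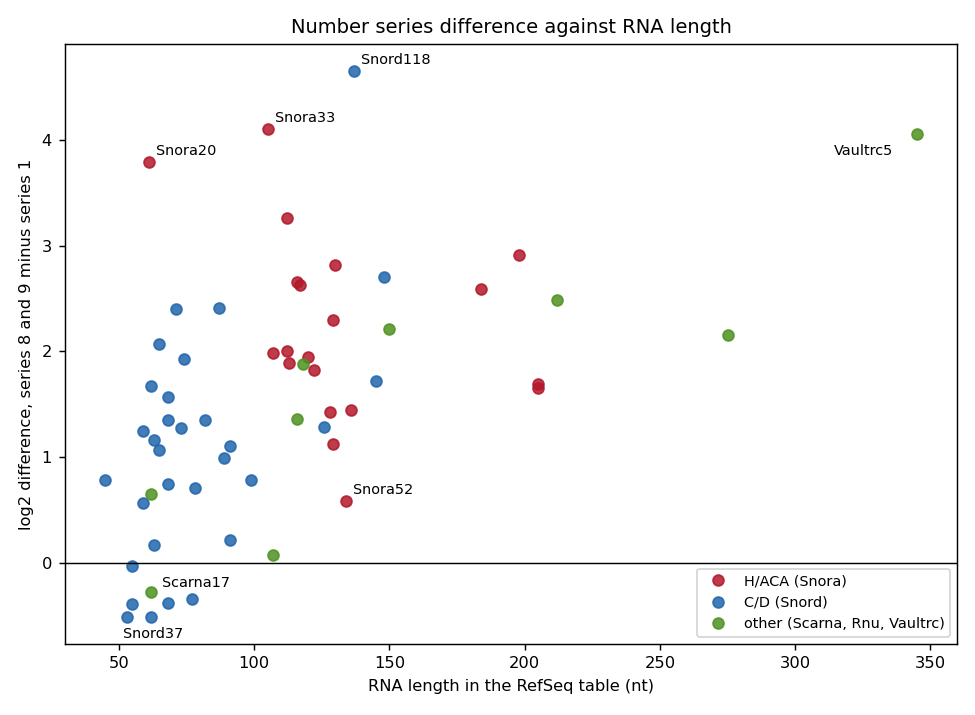
Log2 difference of series 8 and 9 over series 1 (y, mean of both contrasts) against RNA length in nt from the RefSeq table (x), a point per gene coloured by class. C/D genes under 70 nt spread from -0.51 to 2.07, and Snord118 at 4.65 is highest.

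Treatment was examined to see how small RNA genes stood a few hours after the drug. With RNA input in the model, 34 of the 60 small RNA genes were higher in CTX 4h and 0 lower, against 1.41% of all genes higher and 1.26% lower (limma, adjusted p under 0.05 over all genes). The count was 3 with batch as a random block (correlation within batches 0.183) and 1 without the RNA input term. The 34 were 12 of 20 H/ACA, 18 of 31 C/D and 4 of 9 other genes. The median log2 fold change was 0.89 for H/ACA, 0.68 for C/D and 0.87 for other genes, against -0.01 for all genes, and 55 of the 60 were positive. Without CTX 4h replicate 30, 1 of the 2 treated arrays at 300 ng, the count fell to 22.

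Snord15b, which encodes a C/D RNA named U15B, had the smallest adjusted p. Its values were 8.95, 11.21 and 12.44 (lowest, median, highest of 31) in CTX 4h and 8.67, 10.63 and 11.49 (of 32) in native lymphomas. The ranges overlapped, and 23 of 31 CTX 4h arrays lay above the native median. The log2 fold change was 1.09 ± 0.22 (SE, adjusted p = 0.00246 by limma), or 2.13-fold. Its neighbour by name, Snord15a, changed by 1.41 ± 0.35 (adjusted p = 0.0144).

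Among H/ACA genes, Snora31 lay at 6.57, 10.92 and 12.93 in CTX 4h and at 6.38, 9.96 and 11.27 in native lymphomas (lowest, median, highest), with 24 of 31 treated arrays above the native median. It changed by 1.77 ± 0.41 (SE, limma adjusted p = 0.00832). Snora20 had the largest fold change of all members, at 1.86 ± 0.48 (adjusted p = 0.0198), with values of 4.08, 9.52 and 11.38 in CTX 4h and 4.86, 8.38 and 10.39 in native lymphomas. Snora73a and Snora73b, near-identical copies of the U17 RNA that acts in ribosomal RNA cutting, rose by 0.91 and 0.89. They may share signal. Snora74a, Snora62, Snora75, Snora44 and Snora70 rose by 1.05 to 1.40 and Snora16a and Snora7a by 0.75 and 0.64. Snora52 rose least, by 0.31 ± 0.07 (adjusted p = 0.0114), and averaged 13.62 ± 0.29 in CTX 4h (SD, n = 31) and 13.45 ± 0.26 in native lymphomas (SD, n = 32). Of the 8 H/ACA genes not called, all had positive values, of which Snora33 was highest at 1.54 (adjusted p = 0.0658) and Snora41 lowest at 0.61 (0.199).

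Of the other C/D genes called, Snord35b (1.28), Snord87 (1.12), Snord47 (1.10), Snord73b (1.09) and Snord49a (1.07) changed by more than 2-fold. Snord53, Snord33, Snord73a, Snord35a, Snord104, Snord49b, Snord14e, Snord22, Snord38a, Snord55 and Snord82 rose by 0.52 to 0.92. Snord22 is the U22 RNA, known for a part in small subunit RNA processing. Snord118 had the largest C/D value, 1.80 ± 0.56, but missed the threshold (adjusted p = 0.0626 by limma). The 5 members with negative values were all C/D genes, and none passed. Snord37 was lowest, at -0.27 ± 0.15 (adjusted p = 0.34), with 4.95, 6.13 and 6.74 in CTX 4h and 5.01, 6.27 and 7.15 in native lymphomas.

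Of the other classes, Vaultrc5 rose by 1.76 ± 0.48 (SE, limma adjusted p = 0.0288), with 5.56, 10.43 and 11.85 in CTX 4h and 4.89, 9.59 and 11.01 in native lymphomas. Rnu3a rose by 1.43 ± 0.35 (adjusted p = 0.013), Rnu12 by 1.21 ± 0.30 (0.0139) and Scarna8 by 0.87 ± 0.24 (0.0288). Scarna13 (0.93) and Scarna17 (0.51) missed the threshold at adjusted p = 0.0821 and 0.0571. The spliceosomal RNA genes Rnu5g (0.34, adjusted p = 0.312) and Rnu6 (0.11, 0.489) and the U7 gene Rnu7 (0.02, 0.969) were not called either. Their means over all arrays were low (4.53, 3.27 and 4.80), below the first quartile of all genes (5.83).

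**Figure D4:**
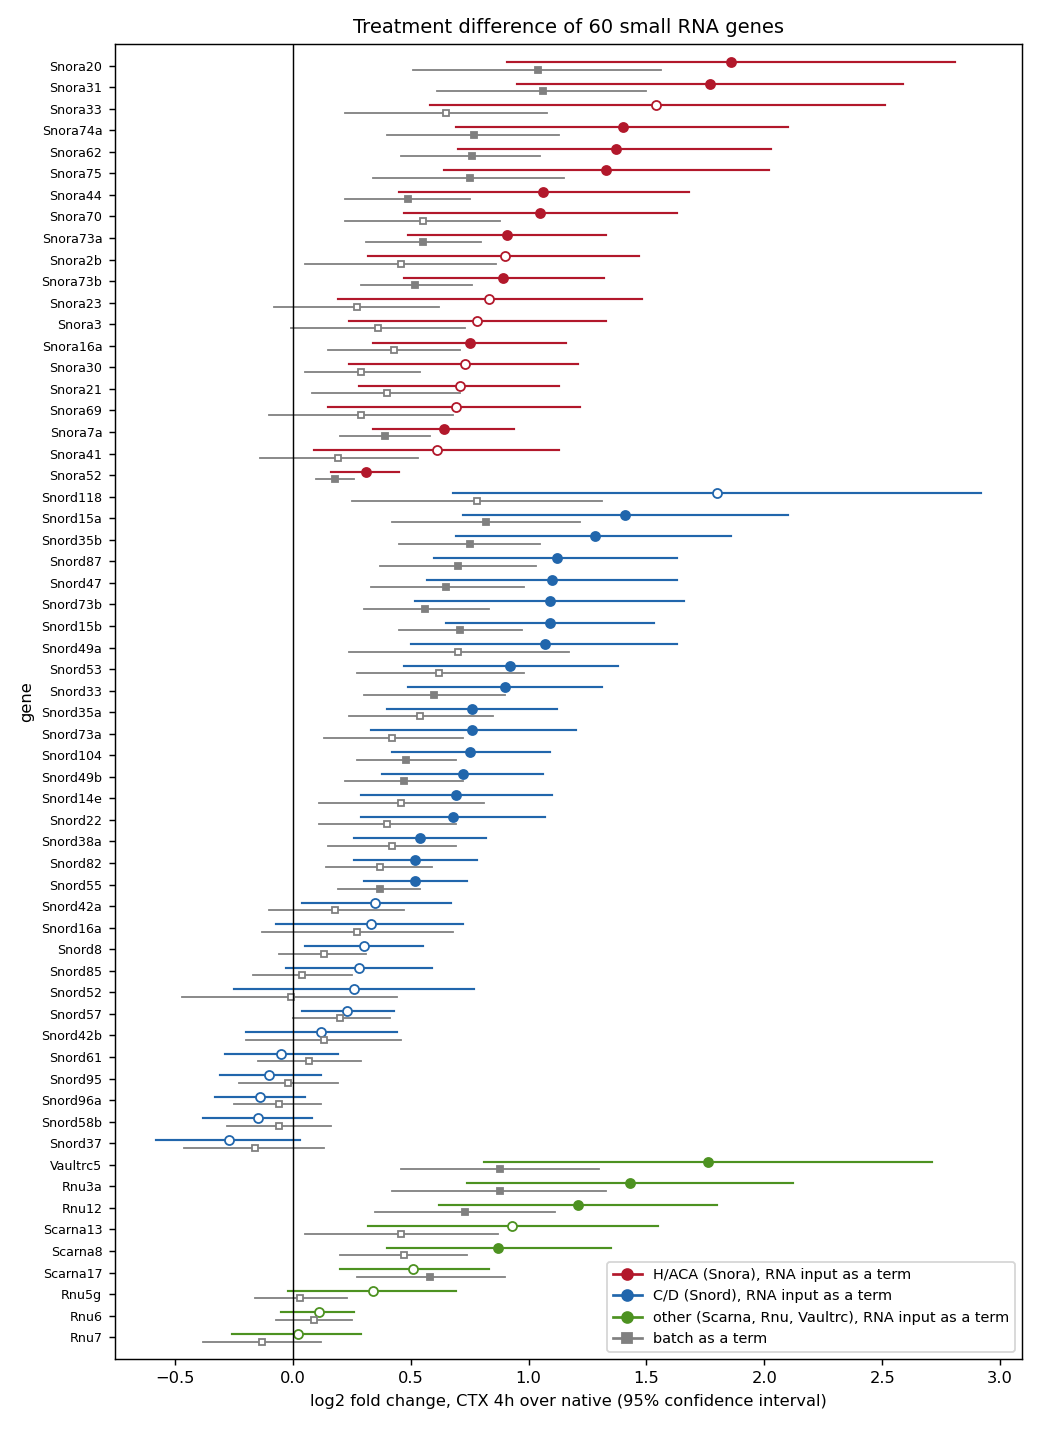
Log2 fold change of CTX 4h over native for each gene with its 95% confidence interval, by class. Coloured circles hold RNA input in the model and grey squares hold the 4 batches, and filled symbols passed adjusted p under 0.05; the batch model moves most values towards 0 but leaves 54 of 60 positive.

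Series 1 supplied 6 of the 29 CTX 4h and 7 of the 15 native arrays at 100 ng, and the treatment difference was also fitted with the batches as a term. Then 24 members were higher and 0 lower, against 0.722% of all genes higher, and 23 of them were among the 34. Scarna17 was added, and Snora16a, Snora70, Snord14e, Snord22, Snord35a, Snord38a, Snord49a, Snord53, Snord73a, Snord82 and Scarna8 no longer passed. The median log2 fold change was 0.46 over the members, with 0.47 for H/ACA and 0.42 for C/D genes. Snora31 changed by 1.06 ± 0.22 (SE, limma adjusted p = 0.00577), Snord15b by 0.71 ± 0.13 (0.00114) and Vaultrc5 by 0.88 ± 0.21 (0.0171). This count rested on the treated 300 ng arrays: without CTX 4h replicate 30 it was 4 and without CTX 4h replicate 31 it was 13.

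Without series 1, with 25 arrays a group and RNA input in the model, 19 members were called and all were higher, against 0.552% of all genes called in either direction. The median was 0.57. In the 100 ng arrays alone, with the number series as a term, 0 members were called by limma, against 0.0752% of all genes, while 35 had an unadjusted p under 0.05. The share of all genes under that unadjusted cut is not given. In that limma fit Snord15b had the smallest adjusted p, 0.0887, at 0.63.

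Within batches the median difference of the members was 0.45 in series 8, 0.50 in series 9, 0.14 in series 1 and 0.78 at 300 ng, and 41 of the 60 were positive in all 4 batches, as were 8.85% of all genes. Snora31 averaged 11.06 ± 0.71 (SD, n = 9) in CTX 4h and 9.86 ± 0.08 (n = 3) in native lymphomas of series 8. In series 9 it averaged 11.19 ± 0.92 (n = 14) in CTX 4h, and the 5 native lymphomas lay at 8.77, 9.59, 9.60, 10.72 and 11.27. In series 1 it averaged 7.55 ± 0.69 (n = 6) in CTX 4h and 7.05 ± 0.48 (n = 7) in native lymphomas, with overlapping ranges. At 300 ng the 2 CTX 4h arrays lay at 11.64 and 12.43, above all 17 native arrays, which ran from 8.15 to 11.17. Snord15b gave the same picture at 300 ng, with 11.86 and 12.06 in CTX 4h against 9.90 to 11.49 in native lymphomas. No interaction was called, but the tests rested on few arrays. There were 2 CTX 4h arrays at 300 ng, and 3, 5 and 7 native arrays in series 8, 9 and 1. The tests therefore cannot show that the treatment difference was alike across batches. Treatment by RNA input gave 0 members against 0.0201% of all genes, with 1 unadjusted p under 0.05 (Scarna17, adjusted p = 0.503). Treatment by number series gave 0 members (0.0% of all genes), again with 1 unadjusted p under 0.05 (Snora30), and the smallest adjusted p was 1.0 by limma.

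Other genes moved with treatment as well, and their part in the small RNA result was not tested. Of 8 stroma and endothelium markers 4 were higher, of 4 adipocyte markers 2 and of 5 salivary gland markers 2, against 1.41% of all genes. With the batches as a term these counts were 1, 1 and 0, against 0.722% of all genes. Per-array means of the salivary markers ran from 4.73 to 12.78 in CTX 4h and from 4.5 to 12.50 in native lymphomas. Of 7 B cell, 8 macrophage, 8 T and NK cell and 4 plasma cell markers measured, 0 were called by limma, while 1, 5, 2 and 0 of them had an unadjusted p under 0.05.

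For RNA input, 8 members were higher at 300 ng than at 100 ng and 0 lower, against 0.145% of all genes higher (limma, with treatment in the model). They were 4 H/ACA and 4 C/D genes, Snora16a, Snora73a, Snora73b, Snora7a, Snord104, Snord33, Snord35b and Snord47. Snord35b lay at 12.29 and 12.59 in CTX 4h and 10.82 to 11.83 in native lymphomas at 300 ng, against 9.51 to 12.69 in series 8 and 9 and 8.15 to 9.20 in series 1 at 100 ng. Only series 1 lay wholly below the 300 ng arrays. The difference was 1.55 ± 0.32 (SE, adjusted p = 0.0295). The largest differences were those of Snora33 (2.01, adjusted p = 0.0677), Vaultrc5 (1.93, 0.0677), Snora20 (1.83, 0.0779) and Snord118 (1.83, 0.128), which were not called. The count was 0 without any 1 of native replicates 9 to 15 (all of series 1), 24 and 26 or CTX 4h replicate 31, and 24 without native replicate 1. The lowest were Snord95 (-0.20), Snord37 (-0.19) and Snord58b (-0.14), likewise not called.

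All native 300 ng arrays carry numbers of series 8 and 9, so series 1 adds to the 100 ng side only. Without series 1, 0 members were called for RNA input (0.0% of all genes) and 17 had an unadjusted p under 0.05, with a median of 0.19. Between native arrays of series 8 and 9 alone, 17 at 300 ng and 8 at 100 ng, 0 members were called (0.0% of all genes by limma) and 8 had an unadjusted p under 0.05. The share of all genes under the unadjusted cut is not given for these fits, so its counts have no background. The median difference between those native arrays was 0.13, against 0.80 with series 1 included. Snord33 (0.67, 95% confidence interval 0.24 to 1.11), Snord35b (0.57, 0.23 to 0.90) and Snora73a (0.34, 0.08 to 0.60) had intervals above 0, and Snora44 (0.07, -0.22 to 0.35) and Snord118 (-0.09, -0.86 to 0.68) did not.

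Of the 60 genes, 54 lie within the span of another gene of the RefSeq table and 6 in none. For 28 of them the shortest gene that contains them was itself measured, giving 24 host genes, many of them ribosomal protein and translation factor genes. For CTX 4h over native the hosts' median log2 fold change was -0.01 (range -0.31 to 0.43), beside 0.81 for the 28 small RNAs, of which 15 were called. Of the 24 hosts 1 was called, Gas5, a non-coding gene that hosts many C/D snoRNAs. Over all genes 1.41% were called higher and 1.26% lower, so 1 call among 24 hosts is close to the background. In series 8 and 9 against series 1 the hosts' median was -0.20 (-0.73 to 0.50) and that of their small RNAs 1.88 (-0.51 to 4.10). The small RNA exceeded its host in 27 of 28 pairs for treatment and in 25 of 28 for the series. These pairs leave out the non-coding hosts Snhg1, Snhg3, Snhg4, Snhg6, Snhg10 and Snhg12, which had no measured value. Non-coding hosts that were measured are given below. By limma 3 hosts were higher and 9 lower in series 8, and 4 higher and 10 lower in series 9, against the shares of 20.8% and 24.5%, and 28.9% and 29.5%, of all genes. The F test called 13 of the 24 hosts, near the 52.3% of all genes. Hosts also varied less over the 63 arrays, with SDs of 0.08 to 0.53 (median 0.23). Several hosts lay high on the scale, with native medians of 13.77 for Rpl10, 13.61 for Tpt1 and 13.64 for Eef2. The highest mean of any gene was 14.42. Other hosts lay lower, such as Haus6 (8.82) and Rplp2 (7.35). Whether high levels limit the differences of hosts was not tested.

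Gas5 had a lowest value of 10.59 and a median of 11.49 in CTX 4h, and 10.06 and 11.32 in native lymphomas. It rose by 0.43 ± 0.11 (SE, limma adjusted p = 0.0175), a call lost with the batches as a term (0.33, adjusted p = 0.103). Snord47, which lies within its span, rose by 1.10, or by 0.65 with the batches as a term (limma adjusted p = 0.0233). The pair had a Pearson r of 0.87 over the 63 arrays, the highest among the hosts. The correlations of the 28 pairs ran from -0.54 (Snora52 with Rplp2) to that value, with a median of 0.18. They are descriptions, since the arrays share batches.

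Ncl encodes nucleolin, an abundant nucleolar protein, and contains an H/ACA gene, Snora75, and a C/D gene, Snord82. Ncl had 12.41, 12.58 and 13.07 in CTX 4h and 11.18, 12.62 and 13.03 in native lymphomas, a change of 0.03 ± 0.08 (SE, limma adjusted p = 0.871). Snora75 lay at 5.63, 9.32 and 10.99 in CTX 4h and 5.65, 8.52 and 10.02 in native lymphomas and rose by 1.33 ± 0.34 (adjusted p = 0.0217). Snord82 lay at 11.10, 12.20 and 13.02 and at 10.76, 11.84 and 12.40 in the same groups and rose by 0.52 ± 0.13 (0.0174). With the batches as a term Snora75 changed by 0.75 (limma adjusted p = 0.0486), Snord82 by 0.37 (0.0999) and Ncl by 0.08 (0.839). Snora75 differed by 2.59 and 2.73 in series 8 and 9 from series 1, Snord82 by 0.75 and 0.73, and Ncl by -0.21 and -0.25. The difference between the 2 small RNAs was not tested.

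The start regions of Ncl and Eef2 are shown because each host is read from 1 start in the RefSeq table and they differ in how host and small RNA stood to each other: Snora75 and Snord82 were higher in series 8 and 9 while Ncl differed by -0.21 and -0.25, and Eef2, a translation elongation factor gene, contains Snord37, which was lower in series 8 and 9, as Eef2 was (-0.34 and -0.39). The windows run from 250 bases before to 50 after the start and come from RefSeq, build GRCm38.p6. Capitals mark CACGTG, the E-box that MYC and its partner MAX bind, which reads the same on both strands.
Ncl, chr1:86359406-86359705, minus strand: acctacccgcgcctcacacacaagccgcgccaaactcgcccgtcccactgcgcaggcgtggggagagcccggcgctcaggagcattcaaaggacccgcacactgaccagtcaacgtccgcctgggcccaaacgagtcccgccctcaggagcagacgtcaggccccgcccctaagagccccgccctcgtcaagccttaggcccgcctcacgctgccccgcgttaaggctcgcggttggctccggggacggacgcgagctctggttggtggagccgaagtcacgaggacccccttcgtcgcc
Eef2, chr10:81176381-81176680, plus strand: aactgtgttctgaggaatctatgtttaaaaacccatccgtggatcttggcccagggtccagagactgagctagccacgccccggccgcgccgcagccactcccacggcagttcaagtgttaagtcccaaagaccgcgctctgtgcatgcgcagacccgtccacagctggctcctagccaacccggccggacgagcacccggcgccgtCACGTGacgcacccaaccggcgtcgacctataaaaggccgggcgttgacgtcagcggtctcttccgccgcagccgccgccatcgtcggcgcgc
CACGTG occurred in the windows of 4 of the 22 hosts that have one (18.2%), against 8.09% of 27025 genes. Besides Eef2 these were Ipo7, Rpl23 and Wdr43, which did not move with their small RNAs between series. In series 8 and 9, Ipo7 differed by -0.42 and -0.51 and Snora23 by 2.56 and 2.62. Rpl23 differed by -0.32 and -0.39 and Snora21 by 1.46 and 1.40. Wdr43 differed by 0.00 and -0.02 and Snord53 by 1.18 and 1.52. A match is only a match of letters, and its absence from the Ncl window says nothing about MYC. Windows of the small RNA genes were not used here.

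**Figure D5:**
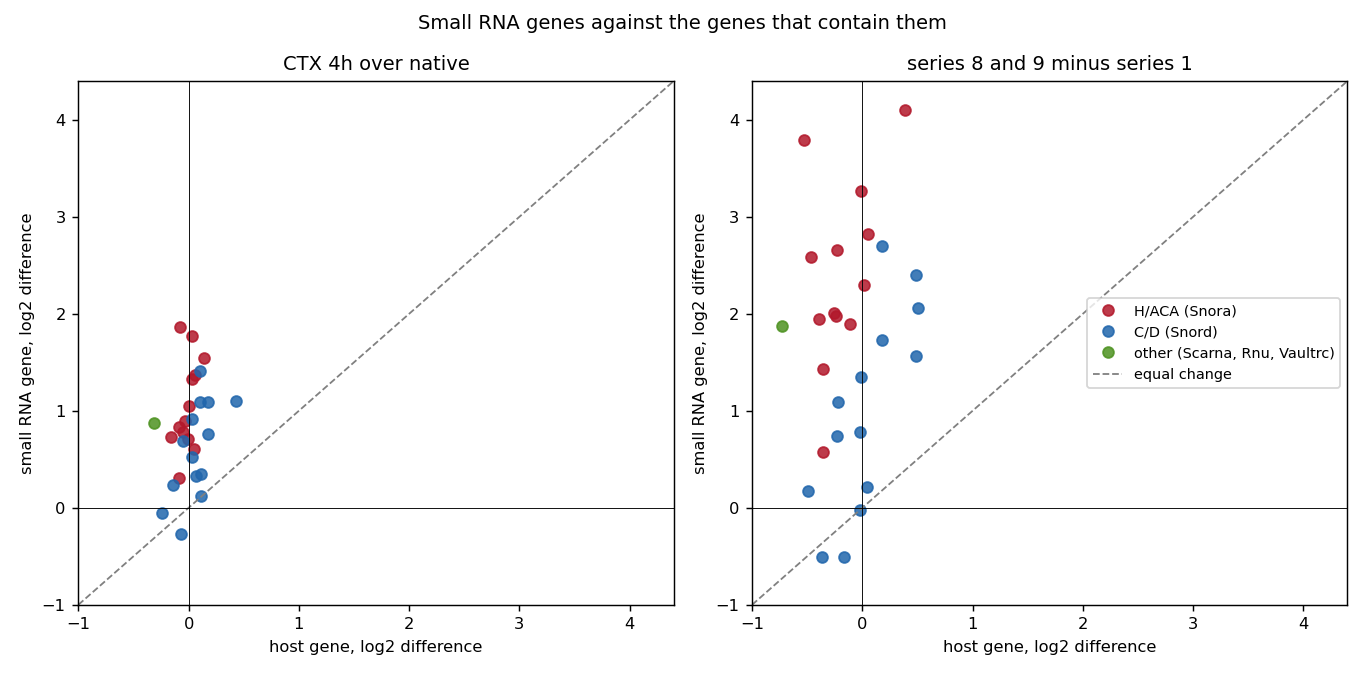
Log2 difference of each small RNA gene (y) against the gene that contains it (x), for CTX 4h over native (left) and series 8 and 9 over series 1 (right), a point per pair coloured by class, with a dashed line of equal change. Hosts stay between -0.73 and 0.50 while small RNA genes reach 4.10.

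Among the listed protein genes of small RNA production and decay, only Ice2 was called with treatment. Of 4 H/ACA core proteins, 5 C/D core proteins, 18 assembly and Cajal body factors, 17 RNA polymerase III factors and 18 trimming and decay factors measured, 0 were called by limma, while 0, 1, 5, 2 and 1 of them had an unadjusted p under 0.05. The smallest p in each belonged to Dkc1 (-0.12, adjusted p = 0.821; the pseudouridine synthase dyskerin), Rrp9 (-0.33, 0.261; a U3 protein), Gemin4 (-0.34, 0.0584; an SMN complex protein), Gtf3c5 (-0.31, 0.191; a TFIIIC subunit) and Exosc3 (-0.31, 0.127; an exosome subunit). Of 19 genes for spliceosomal RNA transcription and 3' end formation 1 was called lower, against 1.26% of all genes. This was Ice2, which encodes a little elongation complex subunit and fell by 0.39 (limma adjusted p = 0.0066). Of the 19, 7 had an unadjusted p under 0.05, and 1 was lower with the batches as a term. The vault protein gene Mvp had -0.03. In series 8 and 9 against series 1 most of these protein genes were lower. Of the 5 C/D core genes all were lower in both, as were 13 of 18 assembly factors and 2 of 4 H/ACA core genes, and the medians were -0.50, -0.57 and -0.32. Over all genes 24.5% were lower in series 8 and 29.5% in series 9. Rrp9 differed by -0.93 and -0.82, Dkc1 by -0.85 and -0.85, Nolc1 (the Cajal body and nucleolar protein Nopp140) by -1.27 and -1.21 and Naf1 (an H/ACA assembly factor) by -1.19 and -1.24.

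Of 5 measured non-coding snoRNA host genes, 3 were higher in CTX 4h, against 1.41% of all genes. Snhg15 rose by 0.87 ± 0.21 (SE, limma adjusted p = 0.013), Snhg17 by 1.0 ± 0.27 (0.0305) and Gas5 as above. With the batches as a term only Snhg15 passed (0.56, limma adjusted p = 0.0492). All 5 were higher in both series 8 and 9 than in series 1, against 20.8% and 28.9% of all genes. Of 6 other short RNA genes, Rmrp (0.42, adjusted p = 0.0066) and Rpph1 (0.30, 0.013) rose, and Rny1 had 0.92 (0.243).

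Members varied together over the arrays. Pearson's r between pairs of H/ACA genes had a median of 0.92 (at least 0.79 in all 190 pairs), between C/D genes 0.65 (-0.42 to 0.97, 465 pairs) and across the classes 0.81. With the means of each batch and treatment group removed, the medians were 0.67, 0.47 and 0.55. These are descriptions over 63 arrays that share processing, and 6 genes have a second probe set with nearly the same values, so their genomic copies cannot be told apart. The SDs over all arrays exceeded the 95th percentile of all genes in 39 members, led by Snord118 (2.13), Snora33 (1.88), Vaultrc5 and Snora20 (both 1.87). The smallest were those of Rnu6 (0.26), Snora52 (0.28) and Snord96a (0.33). In 6 members the mean was below the first quartile of all genes (5.83), namely Rnu6, Snord58b, Rnu5g, Rnu7, Snord61 and Snord38a.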

How the data were processed

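The deposited values are log2 expression values from Affymetrix arrays. Per the submitters' processing notes they were made with Partek 6.5 and RMA, which corrects background, normalizes arrays and summarises probes; settings are not given in the sources used here. Per the labels' protocols, RNA was purified on RNeasy Mini columns and labelled with a whole-transcript kit. How much RNA of 45 to 345 nt these steps keep is not given. Its part in the values, the series differences and the length trend was not tested. Depth does not apply to arrays, and the number of arrays limits the precision.

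Of 35557 probe sets, 21789 had 1 symbol, giving 19938 genes by the probe set with the highest mean, and all 60 members matched the RefSeq table (GRCm38.p6) by gene ID. That table has no strand, so a host is the shortest gene that contains the member, not a same-strand one as planned. Fits used limma 3.58.1 in R 4.3.3 (lmFit, eBayes, two-sided) with treatment and RNA input, and with treatment and number series in the 100 ng arrays. P-values were Benjamini-Hochberg adjusted over 19938 genes, with a threshold of 0.05. Counts of genes with an unadjusted p under 0.05 have no share of all genes beside them and are descriptions only. On simulated data the treatment model called 81 of 100 genes changed by 0.5 (log2) and 98 of 100 changed by 1, with 2 unchanged genes called. For RNA input these counts were 70, 94 and 10, and for the number series 55, 96 and 12. The simulated noise was independent between genes and arrays and held no batch differences, unlike the data. The counts of unchanged genes called therefore do not carry over to the real fits. Named genes are members called for treatment, class extremes for treatment, extremes of the input difference, SD and level, the smallest p of the series and interaction tests, their hosts and the listed genes that passed or had the smallest p. Further ones named for the series comparison (Snord61, Snord95, Snord96a, Nolc1, Naf1, Rny1, Rn7sk and Terc) were chosen after their values were seen. Members and lists were chosen with earlier results of these data known, and the batch model's further settings and the fits without series 1 were added after seeing the data. Figures used matplotlib 3.10.9.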

Additional observations from a re-analysis of the deposited data

How the results depend on the processing

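No paired analysis was possible because replicate numbers only name arrays. The count of 34 members higher in CTX 4h ranged from 22 to 41 on leaving out single arrays. It was 1 without the RNA input term, 0 in the 100 ng arrays alone (46 with an unadjusted p under 0.05), 10 in the 300 ng arrays alone, 3 with batch as a random block and 19 without the 13 series 1 arrays, the subsets having fewer arrays. At 100 ng with the series term it was 0 as well. It was 24 with the batch term, 32 with a common median or quantile normalization, 34 with the mean of probe sets or with trend and robust, 36 among genes above the median level, 40 without the 2 arrays of lowest Myc and 48 with array weights. The batch-term count of 24 ranged from 4 to 27 and was 13 after quantile normalization. The count for RNA input (8) ranged from 0 to 24 on leaving out single arrays, and was 19 after quantile normalization, 16 among brighter genes, 44 with array weights, 0 among native arrays of series 8 and 9 and 0 without series 1. It was 0 without any 1 of native replicates 9 to 15, 24 and 26 or CTX 4h replicate 31. The series F count of 55 stayed between 44 and 56. For most of these settings, here and above, the share of all genes called is not given. Whether a rise, as with array weights, is particular to these genes was not tested. The single host called for treatment was lost (0) without the RNA input term, at 100 ng alone, with the batch term and after quantile normalization. Rnu7 (0.02) turned to -0.06 without the RNA input term, -0.21 at 300 ng, -0.13 with the batch term, -0.11 with the random block, -0.01 with a common median and -0.02 after quantile normalization. A common median moved the median gene's difference of series 8 and 9 over series 1 to -0.168, against 0.0187 as deposited and -0.00468 after quantile normalization. Where no cause is named, the cause was not tested.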

Other observations

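A further 61 probe sets carry several symbols, at least 1 of which begins with Snora, Snord, Scarna, Rnu or Vaultrc, and they enter no comparison above. Fitted over all 35557 probe sets, 15 of the 61 were higher in CTX 4h and 0 lower (24.6%, against 1.48% of all probe sets higher, limma adjusted p under 0.05). With the batches as a term 10 of the 61 were higher, against 233 of all 35557 probe sets. Over the number series 57 of the 61 were called (93.4%, against 53.2% of all probe sets), and their median log2 difference of series 8 and 9 over series 1 was 1.32, in a range from -0.41 to 2.84. No gene is named from these probe sets.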
